A study of Homo sapiens with 12 samples.

Results

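Guanylate-binding proteins (GBPs) are large GTPases of the dynamin superfamily whose genes are transcribed in many human cell types after exposure to interferons, above all interferon gamma. Their products assemble on membranes of pathogens and of the vacuoles that hold them, and some of them join lipopolysaccharide to caspase-4 and so to pyroptosis. The genes examined were GBP1, GBP2, GBP3, GBP4 and GBP5. Each was represented by the array probe set annotated with that symbol alone, or, where several were, by the brightest of them on average over the 12 arrays. This rule gave 4 of the 5 genes, GBP2, GBP3, GBP4 and GBP5, among 18404 named genes in all. No probe set carried GBP1 alone: the one that names GBP1 also names GBP3 and the pseudogene GBP1P1, so its signal cannot be assigned to 1 gene. It is called the shared probe set below and is given as a probe set, not as GBP1.

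Affymetrix Human Gene 1.0 ST arrays, 3 per group, measured RNA of 2 established human melanoma lines, A375 and A2058. The groups were A375 with vemurafenib, A375 with DMSO, A2058 with vemurafenib and A2058 with DMSO. All 12 samples are labelled as carrying the V600E allele of BRAF, the kinase that vemurafenib inhibits, and the A375 samples are also labelled A375p. The protocol gives 1 µM vemurafenib over 72 h, renewed every 24 h, and the same volume of the solvent DMSO for controls; it names A375p cells alone but stands on every sample. Nothing in the labels says whether the replicates were separate cultures, so p-values measure the spread between these arrays, which may be technical.

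The authors deposited log2 expression values, which are used as given. A difference is that between 2 group means on the log2 scale, ± SE, in 1 limma fit of all 12 arrays, and a gene is called at an adjusted p (Benjamini-Hochberg over all 18404 genes) under 0.05. Intervals are 95% confidence intervals of that fit. The lower quartile of all values was 4.37 to 4.41 on each array, and signals near that end of the scale are compressed. Replicate 1 of A375 with vemurafenib was the least like its group, at r = 0.9941 and 0.9939 across genes with the other arrays, which had r = 0.9982 with each other. Markers of other cell types are given in the order A375 vemurafenib, A375 DMSO, A2058 vemurafenib and A2058 DMSO. PTPRC, which marks blood leukocytes, stayed near the lower end, averaging 4.17, 4.17, 4.15 and 4.15. The 7 measured blood and immune markers had mean levels of 4.91 to 4.92, 5.07 to 5.09, 4.63 to 4.67 and 4.93 to 4.98, and 1 of them (LYZ) was called down in each line and none up. LYZ itself averaged 6.56, 7.83, 4.79 and 6.91, so not every blood marker was near the lower end. Melanocytic markers had mean levels of 6.88 to 6.97, 6.55 to 6.65, 9.95 to 9.97 and 8.55 to 8.62, with 3 of 7 called up and 1 down in A375 and 6 up in A2058. The melanocyte lineage factor SOX10 averaged 9.38, 9.53, 9.48 and 9.21. The pigment protein MLANA was near the lower end in A375 (4.54 with vemurafenib and 4.44 with DMSO) and reached 7.08 in A2058 with vemurafenib, against 4.75 with DMSO. Fibroblast markers had mean levels of 5.81 to 5.88, 5.12 to 5.22, 5.55 to 5.63 and 5.66 to 5.68, with 3 of 4 called up in A375 and 1 down in A2058, and with the matrix protein LUM at 6.37 with vemurafenib and 4.22 with DMSO in A375. Endothelial markers had mean levels of 5.23 to 5.27, 5.27 to 5.34, 4.82 to 4.85 and 4.93 to 5.05. Of these 4 markers none was called in A375 and KDR was called down in A2058. KDR itself averaged 6.78, 6.91, 5.06 and 5.70, so it was not near the lower end in A375. Of 4 epithelial markers KRT5 was called down in A375 and none in A2058. The part of these markers in the results below was not tested.

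In the RefSeq annotation the GBP genes stand together on chromosome 1 in the order GBP3, GBP1, GBP2, GBP7, GBP4, GBP5 and GBP6. Promoter sequences from RefSeq (GRCh38.p14, 250 bases before to 50 after the annotated start) were matched for GBP1, GBP3 and GBP4, as well as for GBP6 and GBP7, but not for GBP2 and GBP5. They are shown because GBP4 and the shared probe set were called together in A375. The windows were searched on either strand for GAAA, any 2 bases and GAAA again, the core of the interferon-stimulated response element (ISRE). They were also searched for TTCNNNGAA, a strict palindromic form of the interferon gamma activated site (GAS), which reads the same on both strands. The ISRE letters were found in 3.57% of 35116 promoter windows and the GAS letters in 7.66%. Both searches count letters only. Sites that depart from these letters, such as other forms of GAS, were not searched for, so a window without a match may still hold one. The stretches below hold 60 bases before the ISRE letters and 10 after them, with every match in capitals.
GBP1, chr1:89065316-89065395, minus strand: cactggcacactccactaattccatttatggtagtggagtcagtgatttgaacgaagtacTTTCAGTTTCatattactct
GBP3, chr1:89022845-89022924, minus strand: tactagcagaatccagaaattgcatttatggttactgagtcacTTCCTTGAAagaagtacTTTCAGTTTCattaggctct
GBP4, chr1:89198927-89199006, minus strand: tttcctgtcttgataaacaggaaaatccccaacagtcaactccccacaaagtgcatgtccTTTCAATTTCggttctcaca

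The GBP1 and GBP3 stretches carried the same 10 ISRE letters, TTTCAGTTTC, and were identical at 60 of 80 aligned bases (75.0%). GBP1 and GBP4 were identical at 23 of 80 bases (28.8%), and GBP3 and GBP4 at 27 of 80 (33.8%). The stretches were cut at their ISRE letters and compared without gaps, so most agreement within those letters is built in. No chance level was computed. Counting the annotated start as base 0, the ISRE letters lay at -127 to -118 in GBP1, at 2 to 11 in GBP3 and at -4 to 5 in GBP4. GBP3 also held GAS letters, TTCCTTGAA, at -15 to -7. The windows of GBP6 and GBP7 held neither set of letters. The list counts that follow are of genes with a match in any of their windows, whereas the shares over all promoters are of windows. Among the antiviral interferon stimulated genes listed below, 11 of the 14 with a promoter window held the ISRE letters, and 2 of 14 the GAS letters. Of the interferon gamma output genes 9 of 14 held the ISRE letters and 6 of 14 the GAS letters, and of the interferon gamma signalling genes 1 of 9 and 2 of 9. Of the type I interferon signalling genes 1 of 6 held the ISRE letters and 3 of 6 the GAS letters. For inflammasome and pyroptosis genes both counts were 2 of 7, and for interferon inducible GTPases outside the members 1 of 3. The other dynamin superfamily GTPases (10 with a window), CaaX enzymes (5) and ERK output genes (2) held neither. Whether these letters bear on the changes below was not tested.

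In A375 the comparison of vemurafenib with DMSO asks which GBP genes the drug changed. Of the 4 genes with a probe set of their own only GBP4 was called, and it rose. Over all genes, 37% were called in this comparison, 17.7% up and 19.3% down. The shared probe set was called up too, while GBP2, GBP3 and GBP5 were not called.

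GBP4 is a member of the family that lacks the C-terminal CaaX lipid anchor signal and takes part in the caspase-4 platform on bacteria. It read 5.24, 5.33 and 5.42 on the A375 vemurafenib arrays, against 4.37, 4.40 and 4.43 on the DMSO arrays. The groups did not overlap, and every DMSO value sat near the lower end of the scale. The difference was 0.93 ± 0.050, a 1.91-fold rise (limma adjusted p = 1.09e-08). With DMSO values at the lower quartile of the arrays, where signals are compressed, this size may understate the change. Without A375 vemurafenib replicate 1, the lowest treated array, it was 0.98.

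The shared probe set of GBP1, GBP3 and GBP1P1 read 10.09, 10.26 and 10.31 on the A375 vemurafenib arrays, against 7.52, 7.57 and 7.64 with DMSO. All treated arrays were far above all DMSO arrays. GBP1, one of the genes this probe set is annotated to, encodes the farnesylated GTPase that first coats bacterial lipopolysaccharide. The difference was 2.64 ± 0.065, or 6.25-fold (limma adjusted p = 9.83e-11 over all 32321 probe sets, of which 25.1% were called). It was 2.71 without A375 vemurafenib replicate 1.

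GBP3, a family member that also joins the caspase-4 platform, had a separate probe set that moved far less. It read 4.36, 4.37 and 4.42 on the A375 vemurafenib arrays, against 4.16, 4.23 and 4.34 with DMSO. All 3 treated arrays lay above the DMSO arrays, yet all 6 were near the lower end of the scale. The difference of 0.14 ± 0.10 was not called (limma adjusted p = 0.338), with an interval from -0.077 to 0.36. The rise of the shared probe set was therefore not seen in the probe set that names GBP3 alone. Which of its genes gave the signal of the shared probe set was not tested.

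GBP5, a geranylgeranylated family member that inhibits the protease furin, read 4.43, 4.44 and 4.46 on the A375 vemurafenib arrays. The DMSO arrays read 4.34, 4.38 and 4.39. The treated arrays lay just above the others. The difference of 0.075 ± 0.045 was not called (limma adjusted p = 0.236, interval -0.022 to 0.17). Treated arrays lay wholly above the DMSO arrays for 3 of the 4 genes, GBP3, GBP4 and GBP5, a pattern shown by 21% of all genes.

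GBP2, a geranylgeranylated family member recruited to bacteria after GBP1, did not share the rise. It read 7.78, 8.16 and 8.21 with vemurafenib in A375, against 8.17, 8.20 and 8.29 with DMSO. The groups overlapped, with replicate 1 the low array of the treated group. The difference of -0.17 ± 0.095 was not called (limma adjusted p = 0.204, interval -0.38 to 0.036). It was -0.036 without that array. A second GBP2 probe set behaved likewise, at 6.72, 7.07 and 7.24 with vemurafenib against 7.17, 7.21 and 7.30 with DMSO (-0.22 ± 0.11, limma adjusted p = 0.206 over all probe sets). That second probe set was called down without A375 vemurafenib replicate 3 (-0.33, adjusted p = 0.0328) and was -0.071 without replicate 1. Over its alternatives adjusted p ran from 0.0328 to 0.562.

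**Figure D1:**
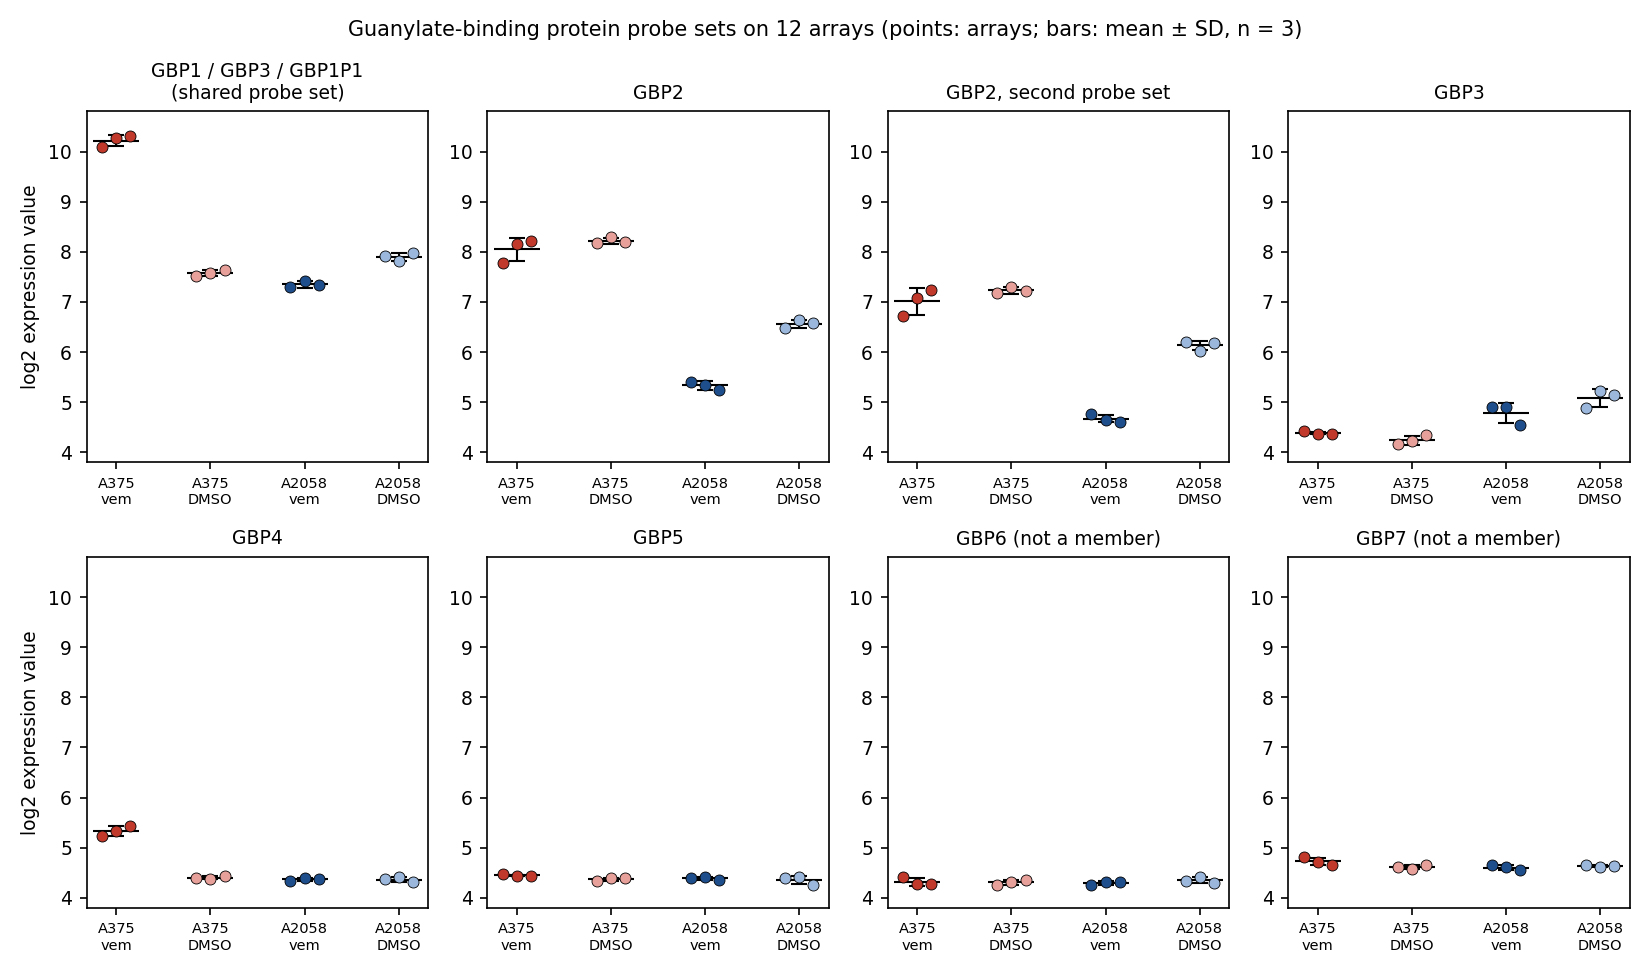
Log2 expression value (vertical axis) of each probe set on the 12 arrays, by group; points are arrays and bars are mean ± SD (n = 3). The shared probe set stands at 10.09 to 10.31 in A375 with vemurafenib and at 7.29 to 7.97 in the other groups, GBP4 is raised in that same group, and GBP2 is lowest in A2058 with vemurafenib. Levels of different probe sets cannot be compared with each other.

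The same question was put to A2058, where no GBP rose. GBP2 fell, GBP3 was called down by a narrow margin, and GBP4 and GBP5 were not called. Of all genes, 27.1% were called in A2058, 14.6% up and 12.5% down. As a probe set, the shared one fell too. Treated arrays lay wholly above the DMSO arrays for none of the 4 genes, a pattern of 21.9% of all genes, and wholly below them for GBP2 alone, a pattern of 18.7%.

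GBP2 read 5.25, 5.35 and 5.41 on the A2058 vemurafenib arrays, against 6.48, 6.58 and 6.63 with DMSO. The groups were well apart, without overlap. The difference was -1.23 ± 0.095, a level of 0.426 of that in DMSO (limma adjusted p = 6.77e-07), ranking 140 from the bottom of 18404 genes. The second GBP2 probe set read 4.61, 4.65 and 4.76 with vemurafenib, against 6.03, 6.18 and 6.20 with DMSO. It gave -1.46 ± 0.11 (limma adjusted p = 2.63e-06 over all probe sets, of which 17.5% were called).

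On the A2058 vemurafenib arrays the shared probe set read 7.29, 7.34 and 7.42, against 7.81, 7.92 and 7.97 with DMSO. Again the groups did not overlap, but treated arrays were the lower ones. The difference was -0.55 ± 0.065, or 0.685 of the DMSO level (limma adjusted p = 0.000105 over all probe sets).

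GBP3 read 4.55, 4.89 and 4.90 on the A2058 vemurafenib arrays, against 4.89, 5.14 and 5.22 with DMSO. The groups overlapped, and vemurafenib replicate 3 was well below the other arrays. The difference was -0.30 ± 0.10 (limma adjusted p = 0.0407, interval -0.52 to -0.084). Over 20 alternatives adjusted p ran from 0.0102 to 0.173, and the call was lost in 11 of them. These included leaving out A2058 DMSO replicate 2 (-0.23, adjusted p = 0.161) or 3 (-0.27, 0.125) and A2058 vemurafenib replicate 3 (-0.19, 0.173). Leaving out A375 DMSO replicate 1 (0.0507) or 2 (0.0567), or A375 vemurafenib replicate 2 (0.0505) or 3 (0.0506), also lost it. Those arrays enter the A2058 comparison only through the shared fit and the adjustment over all genes. With a block for the replicate number the adjusted p was 0.069, and with array weights the value was -0.17.

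GBP4 read 4.34, 4.37 and 4.40 on the A2058 vemurafenib arrays, against 4.30, 4.37 and 4.42 with DMSO. All 6 values lay at the lower end of the scale and overlapped. The difference of 0.0044 ± 0.050 was not called (limma adjusted p = 0.977), and its interval of -0.11 to 0.11 lies below the 0.93 of A375. GBP5 likewise read 4.36, 4.39 and 4.42 with vemurafenib, against 4.26, 4.39 and 4.41 with DMSO (0.040 ± 0.045, limma adjusted p = 0.653, interval -0.057 to 0.14).

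**Figure D2:**
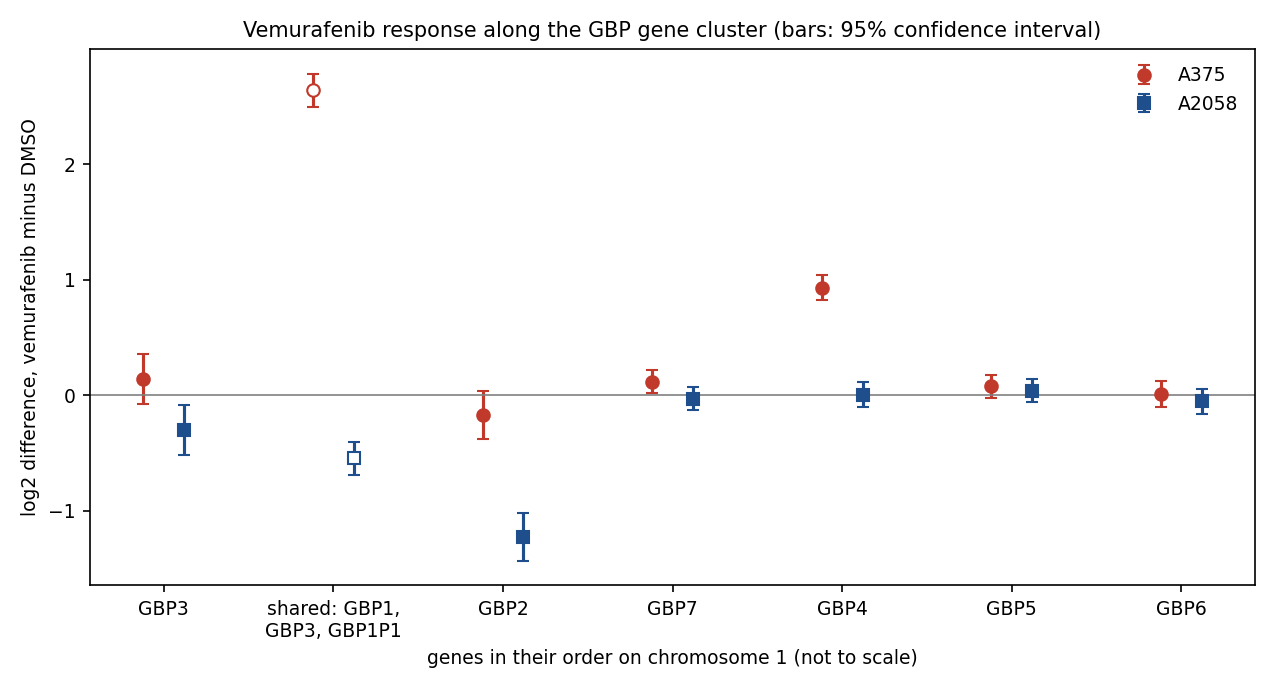
Log2 difference, vemurafenib minus DMSO (vertical axis), for the GBP genes in their order along chromosome 1 (horizontal axis, not to scale), in A375 (circles) and A2058 (squares), with 95% confidence intervals from limma; open symbols are the shared probe set. The shared probe set is drawn at the place of GBP1, although its signal cannot be assigned to 1 gene. In A375 the shared probe set (2.64) and GBP4 (0.93) are the highest, with GBP2 at -0.17 and GBP7 at 0.12. In A2058 GBP2 (-1.23) is the lowest.

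The difference of the responses, A375 minus A2058, was tested as an interaction term. It was called for 3 of the 4 genes and was positive for all of these, while 29.5% of all genes were called, 13.1% with a positive and 16.4% with a negative difference. GBP2 had a difference of 1.06 ± 0.13 (limma adjusted p = 5.55e-05), which combines a fall in A2058 with no call in A375. GBP4 had 0.93 ± 0.071 (limma adjusted p = 6.37e-07), from a rise in A375 and no call in A2058. For GBP3 it was 0.44 ± 0.14 (limma adjusted p = 0.0317), and 9 of 19 alternatives lost that call. GBP5 was not called (0.036 ± 0.063, limma adjusted p = 0.781, interval -0.10 to 0.17). Among the GBP probe sets, the shared one had the largest difference, 3.19 ± 0.092 (limma adjusted p = 1.15e-09 over all probe sets, of which 18.3% were called).

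**Figure D3:**
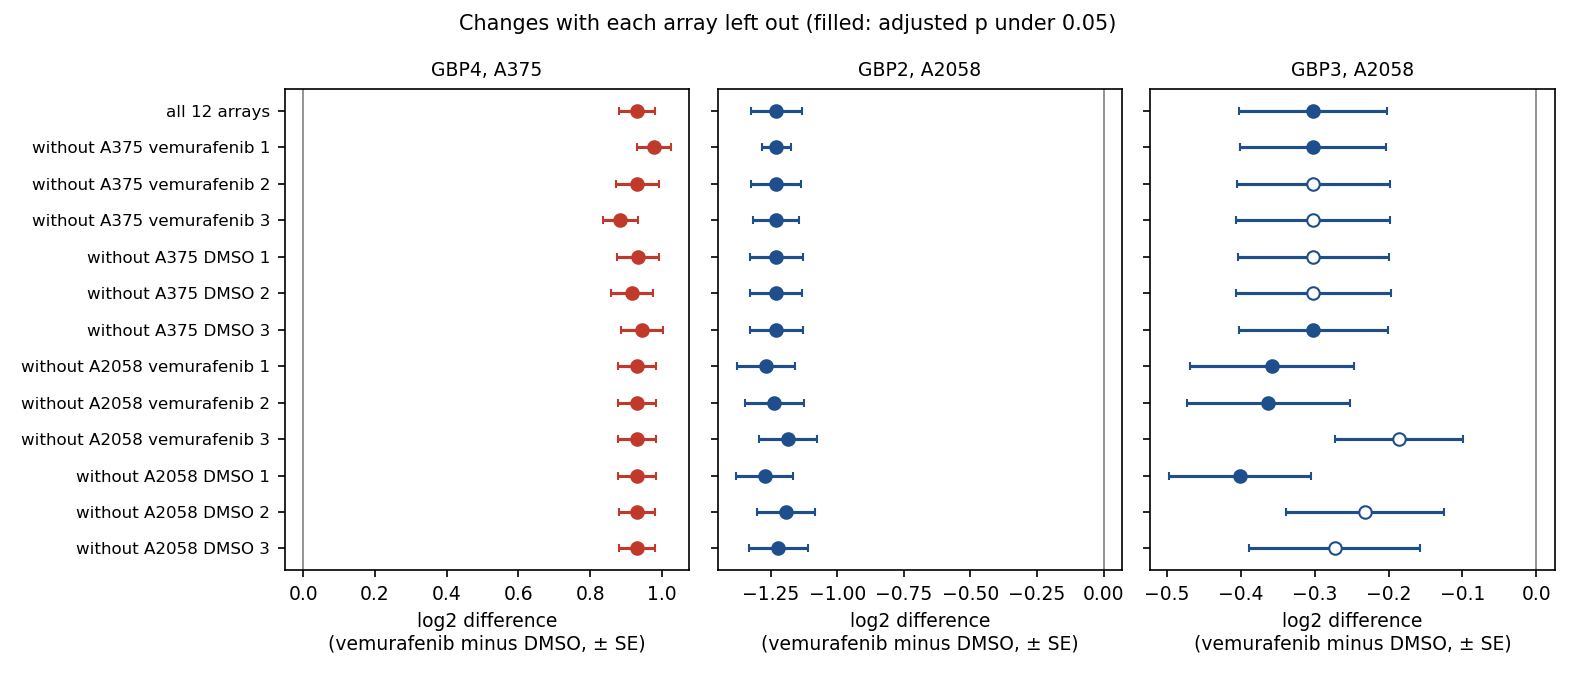
Log2 difference, vemurafenib minus DMSO, ± SE (horizontal axis) for GBP4 in A375 and for GBP2 and GBP3 in A2058, with all 12 arrays and with each array left out in turn (vertical axis); filled points have an adjusted p under 0.05. GBP4 and GBP2 are called throughout, and the GBP3 point moves between -0.40 and -0.19 and is open for several of the arrays.

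The untreated lines already differed in 2 of the 4 genes, A375 against A2058, where 46.4% of all genes were called. Any difference in when or how the lines were processed cannot be told apart from line, here or in the treated comparison below. Arrays of the lines did not overlap for the same 2 genes, GBP2 above (28.5% of all genes) and GBP3 below (28.3%). GBP2 averaged 8.22 ± 0.062 in A375 with DMSO and 6.56 ± 0.080 in A2058 with DMSO (SD, n = 3), a difference of 1.65 ± 0.095 or 3.15-fold (limma adjusted p = 1.45e-08). GBP3 ran the other way, at 4.24 ± 0.089 in A375 and 5.08 ± 0.18 in A2058 (-0.84 ± 0.10, limma adjusted p = 1.19e-05). A375 was lower in the shared probe set as well, at 7.58 ± 0.064 against 7.90 ± 0.082 in A2058 (-0.32 ± 0.065, limma adjusted p = 0.00211 over all probe sets, 33.3% called). GBP4 (0.034 ± 0.050, limma adjusted p = 0.661) and GBP5 (0.019 ± 0.045, limma adjusted p = 0.803) were not called.

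With vemurafenib, 3 of the 4 genes were called between A375 and A2058, and 46.9% of all genes. A375 arrays lay wholly above A2058 arrays for GBP2, GBP4 and GBP5 (24.7% of all genes) and wholly below for GBP3 (26.5%). GBP2 averaged 8.05 ± 0.24 in A375 and 5.33 ± 0.082 in A2058 (SD, n = 3), 6.56-fold apart (2.71 ± 0.095, limma adjusted p = 1.08e-10). GBP4 averaged 5.33 ± 0.094 in A375 and 4.37 ± 0.029 in A2058 (0.96 ± 0.050, limma adjusted p = 5.13e-09). GBP3 remained lower in A375, at 4.38 ± 0.029 against 4.78 ± 0.20 in A2058 (-0.40 ± 0.10, limma adjusted p = 0.00482). In the shared probe set A375 was 7.30-fold higher, at 10.22 ± 0.11 against 7.35 ± 0.066 in A2058 (limma adjusted p = 3.52e-11 over all probe sets, 33.4% called). For this probe set the line with the higher signal thus depended on the treatment. GBP5 was not called (0.054 ± 0.045, limma adjusted p = 0.383). These comparisons share their groups with the drug comparisons above and are not separate evidence.

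Ordered from high to low, GBP2 was therefore highest in both A375 groups, which were not called apart, followed by A2058 with DMSO and then A2058 with vemurafenib. GBP3 was highest in A2058 with DMSO, then in A2058 with vemurafenib, groups that overlapped and whose call was lost in 11 of 20 alternatives, and its A375 groups came last and were not called apart. GBP4 stood out in A375 with vemurafenib, and its other 3 groups lay between means of 4.36 and 4.40. GBP5 had group means of 4.35 to 4.45, with no pair that was tested called apart. Over the 12 arrays the shared probe set had r = 0.98 with GBP4, 0.53 with GBP2, 0.55 with GBP5 and -0.32 with GBP3, a description of 4 group patterns.

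The genes whose pattern over the 12 arrays was most like each member were named by Pearson's r, again as a description. For GBP4 these were the neuropeptide gene TAC1, the protease PCSK5, the matrix protein gene TNN, the water channel AQP4 and the ubiquitin-like modifier ISG15, with r of 0.9953 to 0.9965. For GBP2 they were the laminin chain LAMB3, ISG20L2, TMEM43, the Notch coactivator MAML2 and the VEGF receptor KDR (r of 0.9934 to 0.9952). For GBP3, CENPX, the iron regulator HFE, the adhesion molecule CHL1, DGCR8 and STOX1 had r of 0.957 to 0.969. GBP5, whose values hardly vary, had lower r of 0.836 to 0.917, with C1orf54, PLEKHA7, SLC9B1, U2AF1L4 and ASB2.

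Other interferon inducible GTPases were read from 5 measured genes of 6 listed. This and the later lists were chosen with earlier results of these data known, so their counts are not independent evidence. Over all genes, 17.7% were called up and 19.3% down in A375. In A2058 these shares were 14.6% and 12.5%. In A375 2 were called up and none down, with a median of 0.12 against 0.0042 over all genes. MX1, an antiviral GTPase of the dynamin superfamily, rose by 4.55 ± 0.053 (limma adjusted p = 8.58e-15), and MX2, which restricts retroviruses, by 0.72 ± 0.045 (4.27e-08). GBP6 (0.011 ± 0.051, limma adjusted p = 0.916), GBP7 (0.12 ± 0.046, 0.0655) and the pseudogene GVINP1 (0.0025 ± 0.041, 0.977) were not called. In A2058 the same count was reached, with MX1 at 0.40 ± 0.053 (limma adjusted p = 8.54e-05) and MX2 at 0.64 ± 0.045 (2.68e-07) called up. There GBP6 (-0.053 ± 0.051, limma adjusted p = 0.571), GBP7 (-0.030 ± 0.046, 0.764) and GVINP1 (-0.026 ± 0.041, 0.769) were not called. Group means of GBP6 (4.29 to 4.35) and GVINP1 (4.28 to 4.35) lay at the lower end of the scale, where signals are compressed. The responses of the lines differed for MX1 (4.15 ± 0.075, limma adjusted p = 1.53e-12) but were not called apart for MX2 (0.079 ± 0.063, 0.448). Dynamin superfamily GTPases not known as interferon genes had no rise and 5 falls among 9 measured in A375, with DNM3 at -1.26 ± 0.065 (limma adjusted p = 6.56e-09). ATL1 (0.12 ± 0.078, limma adjusted p = 0.282), ATL3 (0.14 ± 0.055, 0.0598), DNM2 (0.047 ± 0.040, 0.454) and MFN1 (-0.077 ± 0.050, 0.288) were not called there. In A2058 the count was 1 up and 2 down, with the atlastin ATL1 at 0.25 ± 0.078 (limma adjusted p = 0.0282) and DNM3 at -0.59 ± 0.065 (1.55e-05). Without A375 vemurafenib replicate 1 there were 3 falls in A375.

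The interferon gamma pathway that drives GBP transcription runs from the receptor chains IFNGR1 and IFNGR2 through the kinases JAK1 and JAK2 to the transcription factor IRF1. Of 9 measured genes, 3 were called up and 2 down in A375 (median 0.081), and 4 up and 1 down in A2058 (median 0.20). The interferon gamma gene IFNG stayed at the lower end, averaging 4.43 ± 0.054 with vemurafenib and 4.40 ± 0.061 with DMSO in A375, and 4.40 ± 0.019 and 4.38 ± 0.015 in A2058 (SD, n = 3; limma adjusted p = 0.637 and 0.85). IRF1 read 7.52, 7.68 and 7.77 in A375 with vemurafenib, against 6.99, 7.06 and 7.10 with DMSO. It rose in A375 by 0.61 ± 0.090 (limma adjusted p = 0.000129) and was not called in A2058 (0.090 ± 0.090, 0.599), and the responses differed (0.52 ± 0.13, 0.00783). IRF1 was also higher in A375 without the drug, by 1.05 ± 0.090 over A2058 with DMSO (limma adjusted p = 6.38e-07).

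IFNGR2 fell in both lines, by 1.32 on the log2 scale in A375 (SE 0.040, limma adjusted p = 3.75e-11) and by 0.64 in A2058 (SE 0.040, 9.04e-08). IFNGR1 was not called in A375 (0.017 ± 0.059, limma adjusted p = 0.879) and rose in A2058 (0.40 ± 0.059, 0.000219). JAK2 likewise was not called in A375 (0.17 ± 0.076, limma adjusted p = 0.105) and rose in A2058 (0.68 ± 0.076, 1.87e-05). The feedback inhibitor SOCS3 rose in A375 (0.54 ± 0.067, limma adjusted p = 2.87e-05) and in A2058 (0.26 ± 0.067, 0.0109). The phosphatase PTPN2, which acts on JAK kinases, fell in A375 (-0.40 ± 0.051, limma adjusted p = 3.2e-05) and was not called in A2058 (-0.11 ± 0.051, 0.151), a difference of -0.29 ± 0.072 (0.00768). SOCS1, another feedback inhibitor, was not called in A375 (0.081 ± 0.099, limma adjusted p = 0.622) or A2058 (0.20 ± 0.099, 0.185).

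Type I interferon signalling genes had 4 rises and 2 falls among 8 measured in A375 (median 0.098). USP18, which removes ISG15 and damps the type I receptor, rose by 3.27 ± 0.067 (limma adjusted p = 1.04e-12), and the receptor chain IFNAR2 fell (-0.41 ± 0.12, 0.0149). In A2058 2 rose and 2 fell (median 0.020). IRF9, a DNA-binding factor of the type I response, rose by 2.06 ± 0.042 in A375 (limma adjusted p = 9.77e-13) and by 0.72 ± 0.042 in A2058 (5e-08), a difference of 1.35 ± 0.059 (3.45e-09). In A2058 IFNAR2 (-0.65 ± 0.12, limma adjusted p = 0.00097) and USP18 (-0.20 ± 0.067, 0.0423) fell. IRF3 and IRF7 are factors that drive interferon genes. IRF7 rose in A375 (1.03 ± 0.11, limma adjusted p = 1e-05) and was not called in A2058 (0.057 ± 0.11, 0.831). IRF3 fell in A375 (-0.22 ± 0.053, limma adjusted p = 0.00479) and was not called in A2058 (-0.043 ± 0.053, 0.689). The receptor chain IFNAR1 was not called in A375 (0.061 ± 0.097, limma adjusted p = 0.722) or A2058 (0.078 ± 0.097, 0.692). IFNB1 was not called in A375 (2.63e-05 ± 0.038, limma adjusted p = 0.9999) or A2058 (-0.017 ± 0.038, 0.854). It averaged 4.07 to 4.09 over the groups, at the lower end of the scale, where signals are compressed.

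Genes known as outputs of interferon gamma, many of which are induced together with GBPs, had 14 rises and 1 fall among 17 in A375, with a median of 1.10. The chemokine CXCL10 rose most (2.71 ± 0.094, limma adjusted p = 1.41e-10). The adhesion molecule ICAM1 fell (-0.28 ± 0.043, limma adjusted p = 0.000182), and CXCL9 (0.051 ± 0.040, 0.398) and IRF8 (0.039 ± 0.053, 0.667) were not called. CXCL9 averaged 4.37 to 4.42 over the groups, at the lower end of the scale. In A2058 2 rose and 5 fell, with a median of 0.0011, the largest called changes being NLRC5, a transactivator of MHC class I genes (0.17 ± 0.055, limma adjusted p = 0.031), and ICAM1 (-0.75 ± 0.043, 4.2e-08). The peptide transporter TAP1 was the other gene that rose (0.15 ± 0.043, limma adjusted p = 0.0186). Without A375 vemurafenib replicate 1 the A2058 count was 2 up and 7 down. The responses of the lines differed for 15 of these 17 genes, all with a positive difference.

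Antiviral interferon stimulated genes, a list also chosen with earlier results of these data known, rose in 16 of 16 cases in A375. Their median was 3.49, against 0.0042 over all genes. IFIT1, which binds viral RNA, rose most (6.0 ± 0.057, limma adjusted p = 2.53e-15). In A2058 4 of 16 were called up and none down, where 14.6% of all genes were called up and 12.5% down. The median was 0.021, against 0.0064 over all genes, and the rises were led by IFI6 (0.60 ± 0.038, limma adjusted p = 1.02e-07). Without A375 vemurafenib replicate 1 the A2058 count was 4 up and 1 down. The smallest of the 16 rises in A375 was that of HERC5, an ISG15 ligase, at 1.04 ± 0.081 (limma adjusted p = 3.64e-07).

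Enzymes that attach and process the CaaX lipid anchors used by GBP1, GBP2 and GBP5 had called changes of 0.53 or less. Of 5 measured, 3 rose and 1 fell in A375 (median 0.18), with the prenyltransferase subunit PGGT1B at 0.53 ± 0.066 (limma adjusted p = 2.77e-05) and the protease RCE1 at -0.14 ± 0.041 (0.0183). The prenyltransferase subunit FNTA was not called there (-0.13 ± 0.062, limma adjusted p = 0.123). In A2058 2 rose and none fell (median 0.034), with FNTA at 0.28 ± 0.062 (limma adjusted p = 0.00455) and PGGT1B at 0.19 ± 0.066 (0.0458). RCE1 (0.034 ± 0.041, limma adjusted p = 0.68), ICMT (0.018 ± 0.049, 0.882) and ZMPSTE24 (-0.17 ± 0.065, 0.0745) were not called in A2058.

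Inflammasome and pyroptosis genes, which act downstream of GBPs on bacteria, had 5 rises and 2 falls among 11 in A375 (median 0.035). The DNA sensor AIM2 rose by 1.47 ± 0.087 (limma adjusted p = 2.51e-08), the lipopolysaccharide-sensing caspase CASP4 by 0.68 ± 0.056 (6.65e-07) and the pore-forming GSDMD by 0.27 ± 0.047 (0.000553). The cytokine IL1B (-1.55 ± 0.062, limma adjusted p = 5.43e-10) and the adaptor PYCARD (-0.29 ± 0.10, 0.0349) fell. The A375 genes not called were CASP5 (0.035 ± 0.034, limma adjusted p = 0.518), NLRP3 (-0.090 ± 0.056, 0.262), NLRC4 (0.0032 ± 0.050, 0.975) and IL18 (-0.042 ± 0.039, 0.498). In A2058 1 rose and 3 fell (median -0.062), PYCARD rising by 1.02 ± 0.10 (limma adjusted p = 5.68e-06) and IL1B falling (-1.22 ± 0.062, 1.28e-08). CASP4 (-0.21 ± 0.056, limma adjusted p = 0.0126) and GSDMD (-0.16 ± 0.047, 0.0233) also fell there.

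All 5 ERK output genes fell in both lines, with medians of -1.93 in A375 and -2.63 in A2058. SPRY4, a feedback inhibitor of ERK signalling, fell most in A375 (-3.91 ± 0.060, limma adjusted p = 9.97e-14), and the transcription factor ETV4 in A2058 (-3.71 ± 0.075, 4.05e-12). Without A375 vemurafenib replicate 1, each count of the 9 lists in each line, other than those given above, changed by at most 1 gene.

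**Figure D4:**
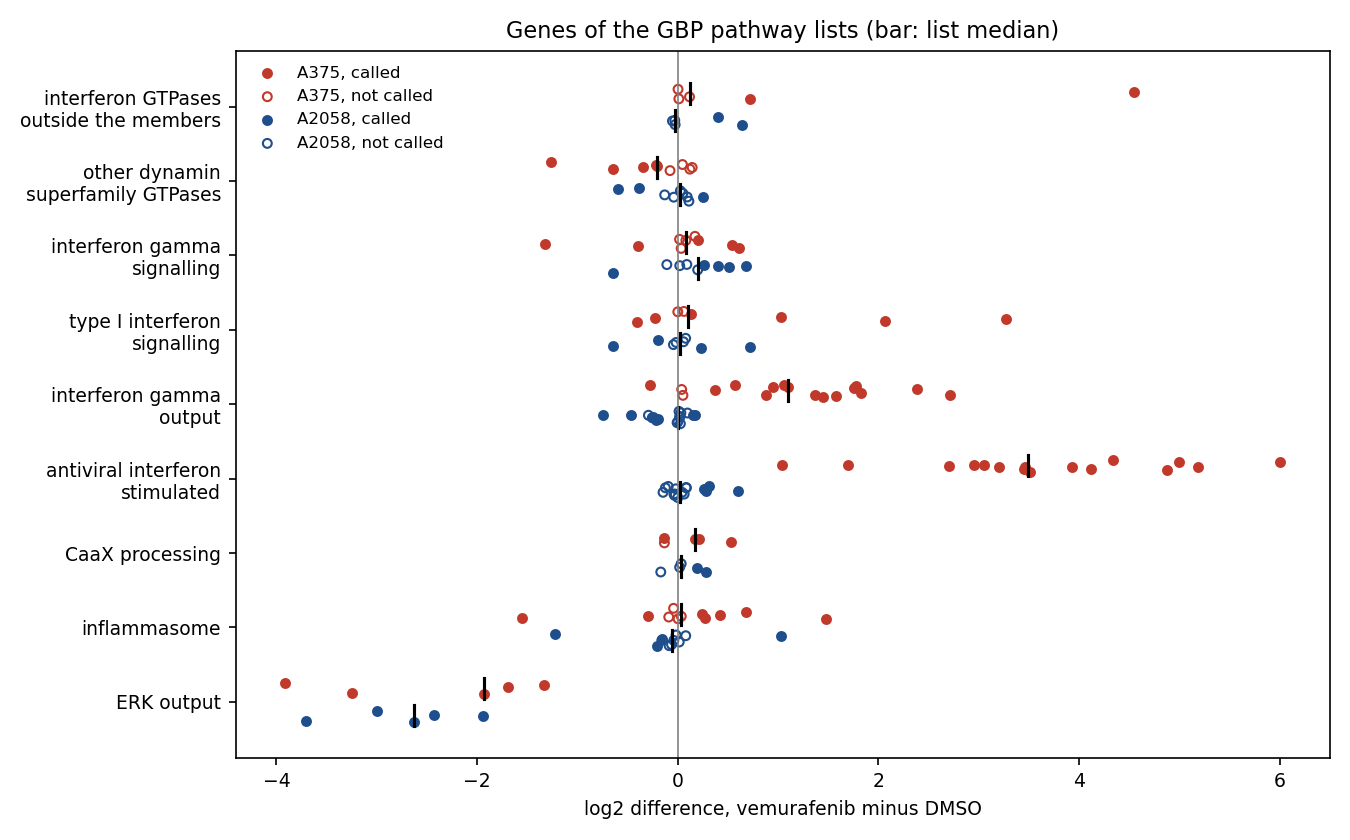
Log2 difference, vemurafenib minus DMSO (horizontal axis), of each measured gene in 9 lists (vertical axis) in A375 and A2058; filled points were called, open points were not, and black bars are list medians. The antiviral list has medians of 3.49 in A375 and 0.021 in A2058, and the ERK output list lies below 0 in both lines.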

How the data were processed

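Total RNA was measured on 12 arrays. The values are log2 expression values per probe set, deposited by the authors. The submitters' processing notes name R 3.0.1 with affy. How probes were summarised was not given in the sources used here. The log2 scale and a normalization between arrays were read from the values (3.24 to 13.08, nearly equal quartiles), which were not scaled again. The number of arrays limits the precision.

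Of 32321 probe sets, 19158 had 1 symbol, 1388 several and 11775 none. Symbols came from the platform annotation, and 19128 were updated by Entrez number from RefSeq (GRCh38.p14, names and gene order only). For 637 genes with several probe sets the highest mean was kept, leaving 18404 genes. Groups came from sample titles. limma 3.58.1 under R 4.3.3 fitted 4 group means (lmFit, contrasts.fit, eBayes; 8 residual and 3.98 prior degrees of freedom), with two-sided tests, and was tested on simulated data. The shared and second probe sets were fitted with all probe sets. Of 92 entries in 9 pathway lists, 85 were measured. Members and lists were chosen with earlier results of these data known. Named genes are the members, the 5 most like each, the largest called rise and fall of each list in each line, genes going against the rest of their list, or not called, where these were 5 or fewer, and IRF1, JAK2, IFNGR1, IFNGR2, IFNG, GBP6 and GBP7; other genes, markers included, were named after their values were seen. Listed genes without a probe set of their own were not analysed here.

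Replicate numbers shared between groups were checked by the correlation of deviations from group means, which ran from -0.294 to 0.1, so the numbers were not taken as pairs.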

Additional observations from a re-analysis of the deposited data

Results flagged for a closer look

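The vemurafenib response differed between the lines, by the interaction term of the limma fit, for GBP2 (1.06, A375 minus A2058), GBP4 (0.93) and GBP3 (0.44), of 4 genes tested, where 29.5% of all genes were called, 13.1% with a positive difference. For GBP2 the difference arose with a fall in A2058 (-1.23) and a smaller value in A375 that was not called (-0.17). For GBP4 a rise in A375 (0.93) stood against 0.0044 in A2058. The GBP3 difference (adjusted p = 0.0317) was lost in 9 of 19 alternatives, with adjusted p from 0.00855 to 0.0796.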

How the results depend on the processing

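Alternatives were a fit of 6 arrays alone, a replicate block, each array left out, quantile normalization, median centring, leaving out dim genes, averaging probe sets, testing all probe sets, array weights, and a trended robust fit. The calls of GBP2 and GBP4 kept their side of the threshold wherever they were tested, in all 5 comparisons. With array weights, with all probe sets, with the 6 arrays alone, with dim genes left out and with the replicate block, 1 of the 4 genes was called in A2058 instead of 2, and leaving out single arrays gave 1 to 2. Leaving out dim genes kept GBP2 alone of the 4 (9968 of 18404 genes were tested), so the members called were 0 in A375 and 1 in each other comparison. With the replicate block the GBP3 response in A2058 (adjusted p = 0.069) and its difference between lines (0.0561) lost their calls; the block changed no other call of a member. Differences near 0 turned sign without being called: GBP4 in A2058 without A2058 DMSO replicate 3 (-0.025), without A2058 vemurafenib replicate 2 (-0.0095) and with median centring (-0.018), and GBP5 without A2058 DMSO replicate 3 in A2058 (-0.0066) and between the untreated lines (-0.028). Over left-out arrays GBP4 in A2058 ran from -0.025 to 0.031, GBP5 in A2058 from -0.0066 to 0.069, and GBP5 between the untreated lines from -0.028 to 0.048. GBP4 between the untreated lines ran from 0.0040 to 0.061 and the GBP5 difference between responses from 0.0061 to 0.082, never called. The cause was not tested. The GBP3 difference between responses was 0.31 with array weights. Over left-out arrays, genes called in all numbered 6044 to 7785 in A375, 4172 to 5952 in A2058, 4892 to 6638 for the difference, 7826 to 9361 between lines with DMSO and 8013 to 9679 with vemurafenib. Low signals limit what can be said of GBP3, GBP4 in A2058 and GBP5. Alternatives for the shared and second GBP2 probe sets and list counts without 1 array were chosen after seeing the data.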
